A study of Mus musculus with 42 samples.

Results

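The E2F family in the germline was examined here as 10 genes: the activators E2f1, E2f2 and E2f3, the repressors E2f4, E2f5, E2f6, E2f7 and E2f8, and the DP partner genes Tfdp1 and Tfdp2. They were taken by name from the 27179 genes of the RNA-seq count table, and all 10 passed the filter on low counts in every comparison. RNA was measured in 12 libraries from C57BL/6J male pups at 10 days post-partum (dpp), 3 in each of 4 groups. Controls were Ddx4-Cre/Chd8+/F and mutants (Chd8 CKO) were Ddx4-Cre/Chd8F/-, each as Thy1+ and as c-Kit+ spermatogonia. Ddx4-Cre acts in germ cells, so all 4 groups carried the Cre, the controls had 1 floxed and 1 wild-type Chd8 allele, and somatic cells of the mutants kept their floxed allele. Cells bearing c-Kit were taken on magnetic columns before those bearing Thy1, which the study used to select undifferentiated spermatogonia. The Thy1+ libraries also held much stromal RNA, as given below.

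E2F proteins bind promoters of genes for DNA replication and cell division. E2f1 to E2f3 activate these promoters when cyclin-dependent kinases release them from the retinoblastoma protein, whereas E2f4 and E2f5 hold them silent in quiescent cells together with the pocket proteins p107 and p130 and the MuvB core. E2f6 represses without pocket proteins, as part of a Polycomb complex that silences germline genes in somatic cells, and the atypical members E2f7 and E2f8 bind DNA without a DP partner and shut down activator targets late in S phase. The question was whether these regulators and the genes around them changed with loss of the chromatin remodeler Chd8, and whether activators and repressors changed alike.

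Several family members are known to be transcribed under E2F control themselves, so promoter sequence is shown first. RefSeq promoter windows (GRCm38.p6, which has the coordinates of mm10; 250 bases before to 50 after each annotated start) were matched for 8 of the 10 genes, in 12 windows; E2f4 and E2f5 were not matched. The letters TTGGCGC or TTCGCGC, a core of E2F sites, were searched on both strands. They were found in 5 of the 8 genes, beside 1208 of all 27025 genes with windows. By window they were found in 6 of the 12, beside 3.89% of all 32851 windows. The 2 windows of Tfdp1 overlap and hold the same match, so it is counted in both. The stretches below hold these matches, with the matching letters in capitals, each read 5′ to 3′ on the strand of its gene. Where the letters lie on the opposite strand, as in E2f7 and Tfdp1, the capitals show their reverse complement.
E2f2 (chr4:136172304-136172323, + strand): ggcatatagtTTGGCGCtaa
E2f3 (chr13:29986029-29986055, - strand): cgggaggaccTTGGCGCgtaaaccgta
E2f7 (chr10:110745337-110745363, + strand): gcggcgccgaGCGCCAAgacagcgagg
E2f8 (chr7:48881691-48881717, - strand): gaggcgcggaTTGGCGCgcggggcccc
Tfdp1 (chr8:13338698-13338724, + strand): ggcgccgaagGCGCGAAaaggcgcgca

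With the start base counted as 0, the match began at base 40 in E2f2 and at base 18 in E2f3, after the RefSeq start of each. The RefSeq start of E2f2 lies 120 bases before its first base in the count table, so its match lies upstream of the counted locus, whereas the start that holds the E2f3 match is the first base of its counted locus. The match began at base -92 in E2f7, -111 in E2f8 and -43 in Tfdp1, upstream of the start. These starts lie 26, 555 and 923 bases before the counted loci, in the same order. The same letters were not found in the windows of E2f1, E2f6 and Tfdp2. The start used for E2f1 lies 426 bases inside the gene as the count table draws it, and the 2 starts used for Tfdp2 lie 62430 and 62973 bases inside, so these windows do not cover the 5′ ends of those loci. The CHR element TTTGAA, the contact of the MuvB core in cell cycle promoters, was searched on both strands. It was found in 3 of the 8 genes, E2f2, E2f3 and E2f8, beside 5466 of all 27025 genes with windows. By window it was found in 17.9% of all windows. No CHR match overlapped an E2F match. In E2f2 it lay in the window of a second start. E2f8 held both elements before 1 start, and its 250 upstream bases (chr7:48881597-48881846, - strand) are printed for that reason, with the E2F letters followed by the reverse complement of the CHR letters in capitals.
E2f8 upstream: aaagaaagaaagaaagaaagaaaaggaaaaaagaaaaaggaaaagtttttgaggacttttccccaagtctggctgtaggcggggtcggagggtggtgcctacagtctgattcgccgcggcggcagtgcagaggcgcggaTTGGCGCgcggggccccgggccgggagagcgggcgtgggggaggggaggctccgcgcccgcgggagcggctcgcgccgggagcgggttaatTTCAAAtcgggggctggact

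E2f2 is the member that differed most between genotypes, and the 250 bases before its first annotated start (chr4:136172024-136172273, + strand) are given for comparison. They held neither element.
E2f2 upstream: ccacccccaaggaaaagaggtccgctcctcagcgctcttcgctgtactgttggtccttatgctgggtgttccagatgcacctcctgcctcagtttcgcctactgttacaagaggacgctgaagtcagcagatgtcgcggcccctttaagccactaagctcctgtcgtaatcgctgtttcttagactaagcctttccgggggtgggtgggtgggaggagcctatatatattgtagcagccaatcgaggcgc

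The libraries held 32266861 to 45396233 counted reads each. Levels are given as CPM, the usual count scaled to a fixed library size after TMM normalisation. Among controls, Thy1 averaged 12.6 CPM in the Thy1+ libraries against 0.685 CPM in the c-Kit+ ones, and Kit averaged 288 and 666 CPM in the same order, so the selection labels and the selected genes pointed the same way. For Chd8 itself, c-Kit+ controls averaged 281 CPM and c-Kit+ mutants 305 CPM, and Thy1+ controls and mutants averaged 270 and 274 CPM. Only exons 11 to 13 are deleted and the table counts 37 exons, so this level does not check the deletion. Markers of other cells moved with genotype in c-Kit+ libraries: of 40 tested markers of 8 somatic or blood cell types, 27 were called higher in mutants and 0 lower. The summed level of 5 general germ cell markers was 1950 to 2340 CPM in c-Kit+ controls and 1430 to 1650 CPM in c-Kit+ mutants, that of 6 stromal markers was 1790 to 2240 and 3250 to 4320 CPM, and that of 6 Sertoli markers was 178 to 399 and 664 to 691 CPM. In these bulk samples, fewer germ cells and less of a transcript per germ cell cannot be told apart.

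All 10 genes were transcribed in all 4 groups, with levels spread over more than an order of magnitude. Levels between genes are compared per length, as CPM divided by the kilobases of exon (RPKM). Tfdp1, the main DNA-binding partner, averaged 102 RPKM over the 4 groups, followed by E2f6 at 33.8, E2f1 at 30.0, E2f5 at 28.1, E2f4 at 21.1 and Tfdp2 at 15.2 RPKM. E2f3, E2f7, E2f8 and E2f2 followed at 7.67, 6.35, 4.92 and 1.85 RPKM. The ranges over 12 libraries of E2f6 (29.3 to 39.0), E2f1 (22.5 to 35.7) and E2f5 (20.1 to 38.8 RPKM) overlapped, so their order is not set, and those of E2f3 (6.61 to 8.54), E2f7 (4.20 to 8.05) and E2f8 (3.77 to 6.84 RPKM) overlapped between neighbours too. Tfdp1 stood above every other member in every library, at 85.6 to 113 RPKM, and E2f2 (0.971 to 3.96 RPKM) came last by its mean, although its upper range overlapped the lower range of E2f8. E2f2 rested on 159 to 646 counts per library, the fewest of the family, and Tfdp1 on 4544 to 7850.

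**Figure D1:**
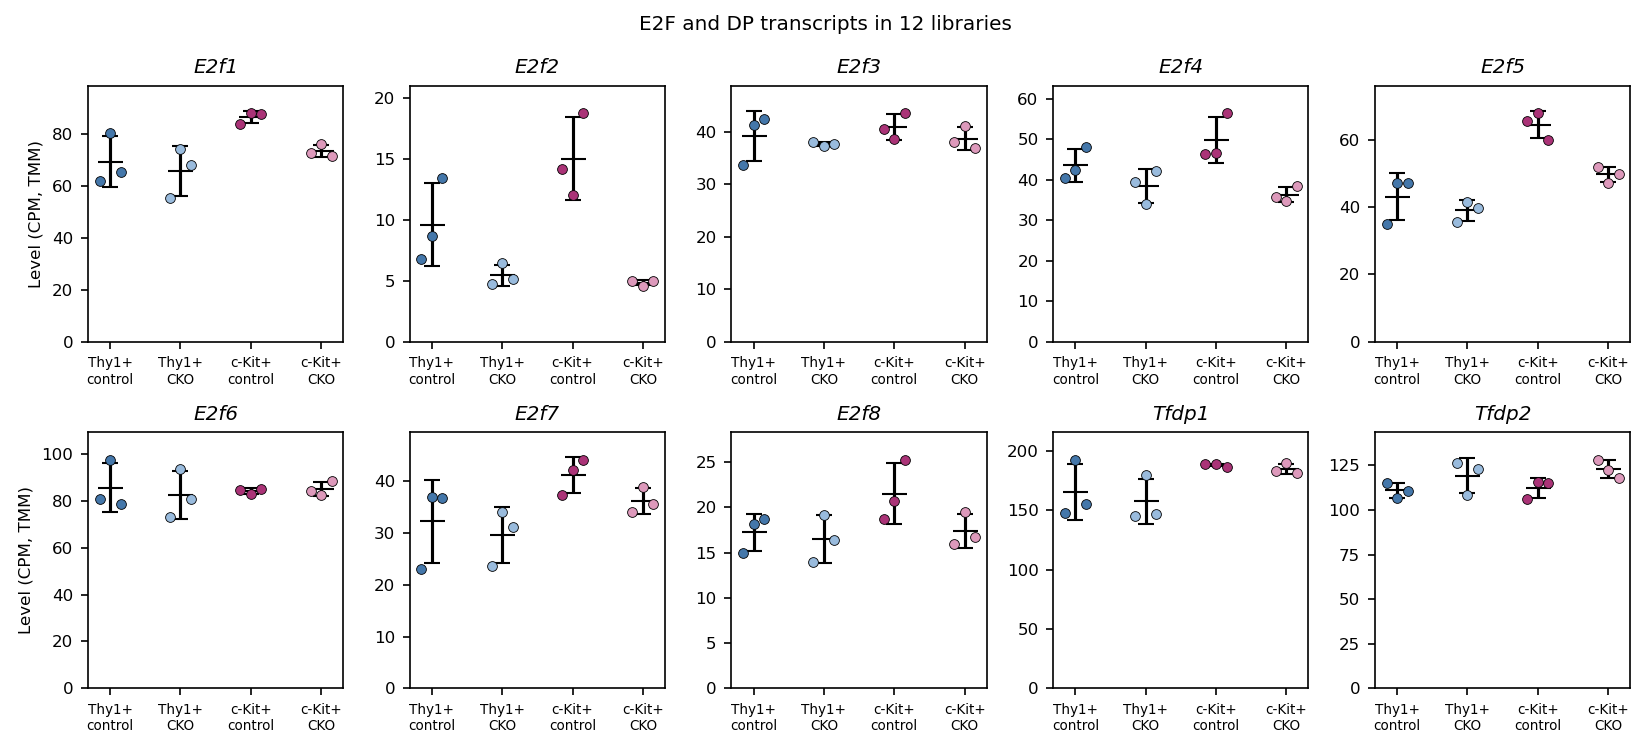
Level of each E2F and DP gene in CPM (normalised by TMM over all 12 libraries), 1 panel per gene with its own axis from 0; points are libraries, horizontal marks and bars the mean ± SD of 3. E2f2 stands at 12.1 to 18.8 CPM in c-Kit+ controls and at 4.60 to 4.99 CPM in c-Kit+ mutants, while E2f6 and Tfdp1 lie at like levels in these groups.

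In c-Kit+ spermatogonia, 9 of the 10 genes had a lower estimate after Chd8 loss, and 2 of them passed both thresholds: E2f2, an activator, and E2f4, a pocket protein-bound repressor. A gene was called at a false discovery rate (FDR, Benjamini-Hochberg over all genes, edgeR quasi-likelihood test) under 0.05 and a log2 fold change beyond 0.5. Of all 17134 genes tested, 7.41% were called lower and 14.8% higher, 22.2% in all, so 2 of 10 called lower is to be read against 7.41%. The median log2 fold change was -0.27 over the 10 genes and 0.01 over all genes. E2f1 and E2f5 passed the FDR with a smaller fold, which gives 4 of 10 lower beside 18.3% of all genes.

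Among the activators, E2f2 stood at 14.2, 12.1 and 18.8 CPM in c-Kit+ control replicates 1 to 3 and at 4.99, 4.60 and 4.98 CPM in mutant replicates 1 to 3. Every mutant library lay below every control library, and the mutants were much closer to each other than the controls were. The fall was 69.0%, a log2 fold change of -1.69 (SE 0.17, 95% interval -2.07 to -1.30, FDR = 2.07e-04), and it ranged from -1.83 to -1.50 when each library was left out. E2f1, the most abundant activator and a driver of S phase entry, stood at 83.9, 87.9 and 87.8 CPM in these controls and at 72.6, 76.0 and 71.5 CPM in the mutants. These groups did not overlap either, and the log2 value was -0.30 (SE 0.065, FDR = 0.00534), under the fold threshold. E2f3, which acts beside E2f1 and E2f2 in proliferating cells, overlapped between genotypes, at 38.7 to 43.5 CPM in controls and 36.9 to 41.1 CPM in mutants (log2 fold change -0.14, 95% interval -0.32 to 0.05, FDR = 0.221).

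Among the repressors, E2f4, the main E2F of quiescent cells, stood at 46.5, 46.5 and 56.4 CPM in c-Kit+ controls and at 35.8, 34.8 and 38.4 CPM in mutants. The groups did not overlap, control replicate 3 being the highest, and the log2 fold change was -0.51 (SE 0.096, 95% interval -0.73 to -0.30, FDR = 0.00228). This call lies at the fold threshold: without control replicate 3 the value was -0.41 and without mutant replicate 2 it was -0.48, with the FDR still under 0.05 in both, and it was -0.46 when all 12 libraries were fitted together. E2f5, the other p107- and p130-bound repressor, stood at 65.5, 67.8 and 60.1 CPM in controls and 52.0, 47.3 and 49.9 CPM in mutants, again without overlap (log2 fold change -0.43, SE 0.076, FDR = 0.00168). Its exons share 21 bases with Rbis on the opposite strand, and reads were counted without regard to strand.

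The other repressors did not pass the test. E2f7 ranged from 37.3 to 44.1 CPM in controls and from 34.0 to 38.9 CPM in mutants (log2 fold change -0.25, FDR = 0.0597), and E2f8, its atypical partner, from 18.7 to 25.2 and from 15.9 to 19.5 CPM (log2 fold change -0.37, FDR = 0.0547). Both overlapped between genotypes, and E2f8 shares 164 exonic bases with a gene on the opposite strand. With the replicate number as a block their FDR was 0.0339 and 0.0329, still under the fold threshold. E2f6 lay at 82.7 to 84.9 CPM in controls and 82.4 to 88.5 CPM in mutants, with a log2 fold change of -0.04 (95% interval -0.18 to 0.10) that turned to 0.02 in the fit of all 12 libraries.

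Of the DP partners, Tfdp1 lay at 187 to 189 CPM in controls and 181 to 190 CPM in mutants (log2 fold change -0.09, 95% interval -0.21 to 0.04, FDR = 0.245). Tfdp2, the only member with a higher estimate, stood at 106 to 116 CPM in controls and 118 to 128 CPM in mutants. Its libraries did not overlap, but its log2 fold change of 0.07 (FDR = 0.434) did not pass the test. In all, 4 members lay wholly below the controls (E2f1, E2f2, E2f4 and E2f5) and 1 wholly above (Tfdp2), beside 20.6% and 31.6% of all genes. These ranges use CPM scaled over all 12 libraries. In a fit so scaled the median log2 fold change of all genes was 0.07, against 0.01 in the c-Kit+ fit. Overlap on the scaling of the c-Kit+ fit was not examined. The germ cell markers had a median log2 fold change of -0.29 in the same comparison, close to the members' median, with 1 of 5 called lower and 0 higher, and somatic markers one of 0.89. The part of these cell types in the members' values was not tested.

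In Thy1+ spermatogonia, 9 of the 10 genes again had a lower estimate in mutants, but none was called, and the median log2 fold change was -0.07 beside 0.02 over all genes. The quasi-likelihood test called 0 of 17416 genes, with 12.4% at an unadjusted p under 0.05, whereas edgeR's exact test called 294 genes (1.69%) and DESeq2 378 genes (2.17%), none of them a member. E2f2 was the only member at an unadjusted p under 0.05, beside 7.69% of all genes that were lower at that level. It stood at 6.80, 8.68 and 13.4 CPM in control and at 4.75, 6.45 and 5.15 CPM in mutant Thy1+ replicates 1 to 3. The mutants were all lower than the controls, and control replicate 3 was the highest. The log2 fold change was -0.81 (SE 0.28, 95% interval -1.44 to -0.18, FDR = 0.340). Same-numbered Thy1+ libraries deviated together, and with the replicate number as a block the value was -0.77 (SE 0.18, FDR = 0.00458), past both thresholds beside 8.12% of all genes. Without the block it was -0.50 when control replicate 3 was left out.

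E2f2 was also the only member whose Thy1+ genotype groups did not overlap, beside 10.7% of all genes that lay wholly below. The other 9 overlapped, with log2 fold changes between -0.17 (E2f4, 95% interval -0.46 to 0.12) and 0.11 (Tfdp2, 95% interval -0.11 to 0.33). E2f1 ranged from 61.9 to 80.4 CPM in Thy1+ controls and from 55.3 to 74.0 CPM in mutants, E2f4 from 40.3 to 48.1 and from 34.0 to 42.1 CPM, and E2f5 from 35.1 to 47.2 and from 35.6 to 41.6 CPM. Undifferentiated spermatogonial markers summed to 718 to 986 CPM in Thy1+ controls and 460 to 586 CPM in mutants, germ cell markers to 1100 to 1680 and 851 to 1380 CPM, and stromal markers to 11000 to 14300 and 12300 to 18900 CPM. The part of these shifts in the value of E2f2 was not tested.

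**Figure D2:**
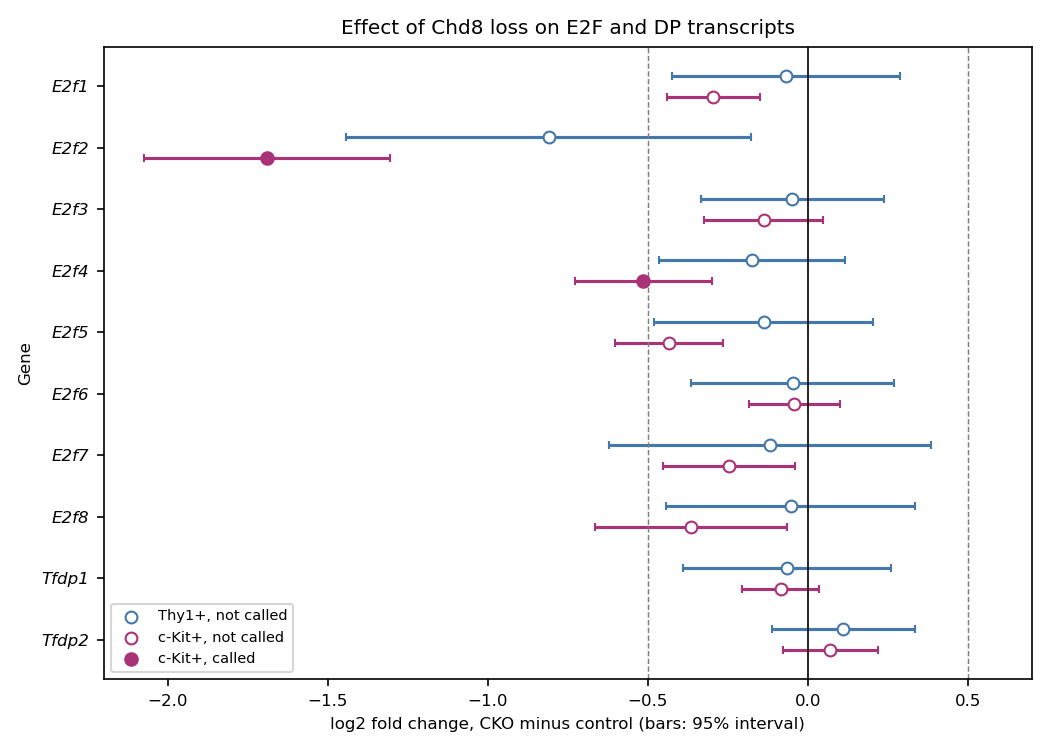
Log2 fold change (mutant minus control) of each E2F and DP gene in Thy1+ and c-Kit+ spermatogonia from edgeR, 3 libraries per group; bars are 95% intervals, dashed lines the fold threshold of 0.5 and filled points called genes. In c-Kit+ cells, E2f2 (-1.69) and E2f4 (-0.51) are called; in Thy1+ cells no member is, and E2f2 is lowest at -0.81.

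The effect of Chd8 loss was not shown to differ between the populations for any member. The difference, c-Kit+ minus Thy1+, was -0.81 for E2f2 (SE 0.34, 95% interval -1.55 to -0.08, FDR = 0.465), -0.28 for E2f4 (FDR = 0.589), -0.23 for E2f5 (FDR = 0.678) and -0.17 for E2f1 (FDR = 0.784). Of all 18002 genes 0 were called in this test, with 10% at an unadjusted p under 0.05, and E2f2 was the only member at that level, beside 1.81% of all genes with a negative difference. DESeq2 called 56 genes (0.311%) for this difference, and no member. The replicate block called 446 genes (2.48%) and no member, with E2f2 at -0.84 (SE 0.29, FDR = 0.143). Same-numbered libraries of the mutant populations correlated from only 0.021, so the block is given here as an alternative alone.

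Between the populations, 8 of the 10 genes had a lower estimate in Thy1+ than in c-Kit+ controls, and E2f5 was the only one called, beside 7.08% of all 17350 genes called lower in Thy1+ cells and 27.8% called in all. E2f5 stood at 35.1, 47.2 and 47.0 CPM in the Thy1+ controls, below the 65.5, 67.8 and 60.1 CPM of the c-Kit+ controls. The groups did not overlap, Thy1+ replicate 1 being the lowest, and the log2 fold change was -0.56 (SE 0.13, FDR = 0.0111); without that replicate it was -0.45. E2f1, E2f7 and E2f8 also lay wholly below, so 4 of 10 members did, beside 24.8% of all genes, with log2 fold changes of -0.30, -0.33 and -0.30 and FDRs of 0.0607, 0.176 and 0.157. E2f2 overlapped at the upper end of the Thy1+ libraries and gave -0.62 (SE 0.26, FDR = 0.0943). With the replicate number as a block E2f2 was called at -0.65 (FDR = 0.00904, beside 30.1% of all genes called), as it was by DESeq2 (-0.65, FDR = 0.0396, beside 29.4%) and without Thy1+ control replicate 3 (-0.98, FDR = 0.0235).

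In Chd8 CKO cells, no member was called between Thy1+ and c-Kit+ spermatogonia, beside 20.3% of all 17346 genes. E2f2 lay between 4.75 and 6.45 CPM in Thy1+ mutants and between 4.60 and 4.99 CPM in c-Kit+ mutants, overlapping, with a log2 fold change of 0.21 (95% interval -0.21 to 0.64, FDR = 0.412). E2f5 was lower in Thy1+ mutants by a log2 fold change of -0.31 (FDR = 0.0479), under the fold threshold and beside 8.84% of all genes lower at that FDR, and its libraries and those of Tfdp1 lay wholly below, 2 of 10 members beside 26.7% of all genes. The controls and the mutants of each population enter more than 1 of these comparisons, so they are not independent of the genotype comparisons. Somatic make-up differed too: stromal markers summed to 11000 to 18900 CPM in the Thy1+ libraries against 1790 to 4320 CPM in the c-Kit+ ones. Its part in these values was not tested.

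Over all 4 groups, the mean level of E2f1, E2f2, E2f3, E2f4, E2f5, E2f7, E2f8 and Tfdp1 was highest in c-Kit+ controls. For E2f1 and E2f5 the c-Kit+ control libraries lay apart from the next group, c-Kit+ mutants, and for the others the top groups overlapped. E2f6 had its highest mean in Thy1+ controls and Tfdp2 in c-Kit+ mutants, and neighbouring groups overlapped throughout for both.

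Activators and repressors kept nearly the same proportion in all groups. The summed level of E2f1 to E2f3 was 46.4 ± 1.6 RPKM (SD, n = 3) in c-Kit+ controls and 38.4 ± 1.3 RPKM in c-Kit+ mutants, and the summed level of E2f4 to E2f8 was 109 ± 2.5 and 92.0 ± 2.2 RPKM. In Thy1+ cells the activators summed to 37.9 ± 4.7 RPKM in controls and 35.3 ± 4.0 RPKM in mutants, and the repressors to 91.4 ± 9.3 and 84.5 ± 6.3 RPKM. The ratio of the sums was 0.426 ± 0.0054 in c-Kit+ controls, 0.418 ± 0.024 in c-Kit+ mutants, 0.414 ± 0.015 in Thy1+ controls and 0.417 ± 0.017 in Thy1+ mutants. These means differed by less than the spread among libraries, which ran from 0.396 to 0.444. E2f1 made up 74.3 to 77.6% of the activator sum, so the fall of E2f2 hardly entered it, and leaving E2f1 out gave a log2 change of the ratio of -0.13 in c-Kit+ cells in place of -0.03. By class, the median log2 fold change in c-Kit+ cells was -0.30 for the 3 activators and -0.37 for the 5 repressors, with 1 called in each class. All 8 E2F genes had lower estimates there, and no test was made over the classes.

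**Figure D3:**
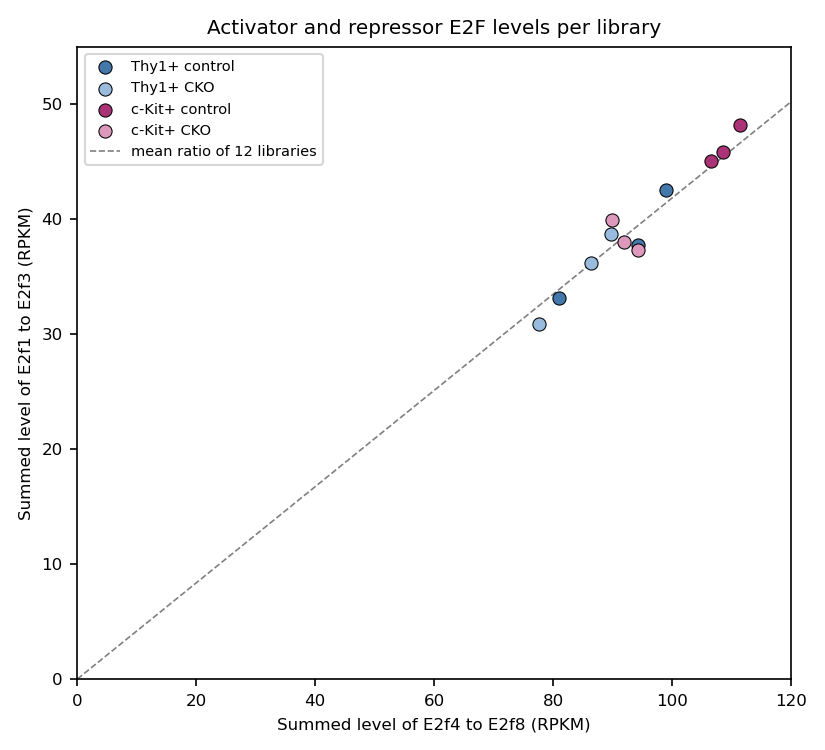
Summed level of the activators E2f1 to E2f3 against the summed level of the repressors E2f4 to E2f8, both in RPKM; each point is 1 of 12 libraries and the dashed line is the mean ratio. The 3 c-Kit+ control libraries lie highest on both axes, at 45.0 to 48.2 and 106 to 112 RPKM, and all libraries stay near the line.

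Upstream of E2F, the 3 pocket proteins that restrain it were not alike in c-Kit+ cells. Of their 3 genes 1 was called, higher, beside 14.8% of all genes called higher and 7.41% lower. Rbl2, which encodes p130 of quiescent cells, rose from 21.6 to 38.1 CPM on average (log2 fold change 0.77, SE 0.11, FDR = 7.04e-04), all mutant libraries lying above all controls. Rb1 and Rbl1, which encodes p107, had log2 fold changes of -0.34 (FDR = 0.00368) and -0.49 (FDR = 0.00168), under the fold threshold. DESeq2 called 2 of the 3 pocket protein genes, 1 higher and 1 lower, beside 22.4% of all genes called. In Thy1+ cells Rbl2 gave 0.41 (FDR = 0.426) and overlapped. Of the 6 genes of the DREAM and MuvB complexes, 1 was called lower in c-Kit+ cells (16.7%, beside 7.41% of all genes) and 0 higher. Lin9, a subunit of the MuvB core, averaged 22.8 CPM in mutants and 31.9 CPM in controls (log2 fold change -0.54, FDR = 0.00322). No gene of this list was called with all 12 libraries in a single fit or without c-Kit+ control replicate 2. The median of these 6 genes was -0.29, all 6 had lower estimates, and Mybl2, the B-Myb partner of MuvB, gave -0.34 (FDR = 0.00565). Between populations, 1 of the 3 pocket protein genes was called higher in the Thy1+ libraries in controls and in mutants, beside 27.8% and 20.3% of all genes called. Somatic markers were higher in c-Kit+ mutants, as given above. The part of somatic cells or of germ cell stage in the pocket protein and MuvB values was not tested.

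Of 15 RB kinases, cyclins and kinase inhibitors, 1 was called higher and 1 lower in c-Kit+ cells, with a median of -0.03. These 13.3% are below the 22.2% of all genes called, and the 6.67% called lower are near the 7.41% of all genes. Cdkn1b, which encodes the inhibitor p27, rose from 11.7 to 25.1 CPM (log2 fold change 1.04, SE 0.15, FDR = 6.48e-04), and Ccne2, a cyclin that activates Cdk2 at S phase entry, fell from 43.9 to 22.3 CPM (log2 fold change -1.04, SE 0.15, FDR = 6.72e-04). Both genes had mutant libraries wholly on 1 side of the controls. In control cells, Cdkn1b averaged 42.5 CPM in the Thy1+ libraries against 11.7 CPM in the c-Kit+ ones. These populations also differed in stromal, other somatic and undifferentiated spermatogonial markers. For the genotype comparison in Thy1+ cells Cdkn1b gave 0.12 (FDR = 0.787) and Ccne2 -0.50 (FDR = 0.540), and the replicate block called 1 of the 15 genes, lower (6.67%, beside 8.12% of all genes). The part of somatic cells or of germ cell stage in these values was not tested.

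Downstream, 22 genes of DNA replication that are textbook E2F targets all had lower estimates in c-Kit+ mutants. Of these, 4 were called lower (18.2%, beside 7.41% of all genes) and 0 higher: Mcm5, a subunit of the replicative helicase, fell from 323 to 195 CPM (log2 fold change -0.78, FDR = 1.44e-04), and Rrm2, a ribonucleotide reductase subunit, from 66.8 to 35.8 CPM (-0.96, FDR = 0.00106). Orc1, of the origin recognition complex, changed by -0.55 (FDR = 4.69e-04), and Ccne2 is counted here as well. The median of the 22 genes was -0.32, and 18 were lower at an unadjusted p under 0.05, beside 22.6% of all genes. In Thy1+ cells 17 of the 22 had lower estimates, beside 46.6% of all genes, and the median was -0.12. The test called 0 of all 17416 genes in these cells, so its 0 of 22 does not set these genes apart.

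The study's list of E2F targets from the Molecular Signatures Database holds 198 genes besides the members, of which 11 are among the 22 replication genes. In c-Kit+ cells 31 were called lower and 3 higher, so that 15.7% were called lower beside 7.41% of all genes, and 167 had lower estimates, with a median of -0.22. The 6 with the lowest p were Nasp, a histone chaperone, at -1.09 (FDR = 7.7e-05), Wdr90 at -0.71 (FDR = 1.15e-04), Mcm5, Kif22, a chromosomal kinesin, at -0.75 (FDR = 1.54e-04), Smc4, a condensin subunit, at -1.36 (FDR = 1.70e-04) and Lig1, the replicative DNA ligase, at -0.62 (FDR = 2.12e-04). Smc4 fell from 263 to 107 CPM and Nasp from 659 to 322 CPM. The study reported lower E2F targets in Thy1+ mutants by gene set enrichment, which was not repeated here. In Thy1+ cells 0 of the 198 were called, as of all 17416 genes. Of the 198, 133 had lower estimates, beside 46.6% of all genes, with a median of -0.09. With the replicate block 7 were called lower and 2 higher, or 4.55% beside 8.12% of all genes. By edgeR's exact test and by DESeq2 3 each were called, all lower, or 1.52% beside 1.69% and 2.17% of all genes. The general germ cell markers had a median of -0.29 in both populations, and their part in these medians was not tested. Between control populations, 46 of the 198 (23.2%) were called lower in Thy1+ than in c-Kit+ cells, beside 7.08% of all genes, and 6 were called higher. In all 26.3% were called, near the 27.8% of all genes, and 169 had lower estimates, with a median of -0.34. The count of 52 called rests on single Thy1+ control libraries, being 29 without replicate 1 and 102 without replicate 2. The share of all genes called moved the same way, to 22.7% and 32%.

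E2f6 itself did not pass the test. Of the 13 genes of its Polycomb complex 0 were called in c-Kit+ cells, beside 22.2% of all genes. Their median was -0.20, with 10 lower estimates, beside 49% of all genes. At an unadjusted p under 0.05, 7 were lower, beside 22.6% of all genes, and 0 were higher. Of 5 germline genes that E2F6 is known to silence in somatic cells, 3 were called lower (beside 7.41% of all genes) and 0 higher in c-Kit+ mutants. Stag3 and Smc1b, both subunits of meiotic cohesin, fell from 472 to 216 CPM (log2 fold change -1.19, FDR = 1.85e-04) and from 399 to 192 CPM (-1.12, FDR = 3.49e-04), and Tuba3b, a testis tubulin, fell from 500 to 337 CPM (-0.63, FDR = 1.75e-04). Near-identical copies of the tubulin gene make its value uncertain. The general germ cell markers had a median log2 fold change of -0.29 in c-Kit+ cells. The part of germ cell content or stage in the falls of these germline genes was not tested. The median of the 5 was -0.63 in c-Kit+ and -0.50 in Thy1+ cells. In Thy1+ cells 0 were called, as of all genes. With the replicate block 3 were called there, all lower, beside 8.12% of all genes. In Thy1+ cells 1 of the 13 genes of the E2F6 complex (7.69%) was called lower with the block, near the 8.12% of all genes. The count was also 1, lower, by edgeR's exact test, by DESeq2 and in the fit of 12 libraries. Of all genes, 1.69%, 2.17% and 1.39% were called in these settings.

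**Figure D4:**
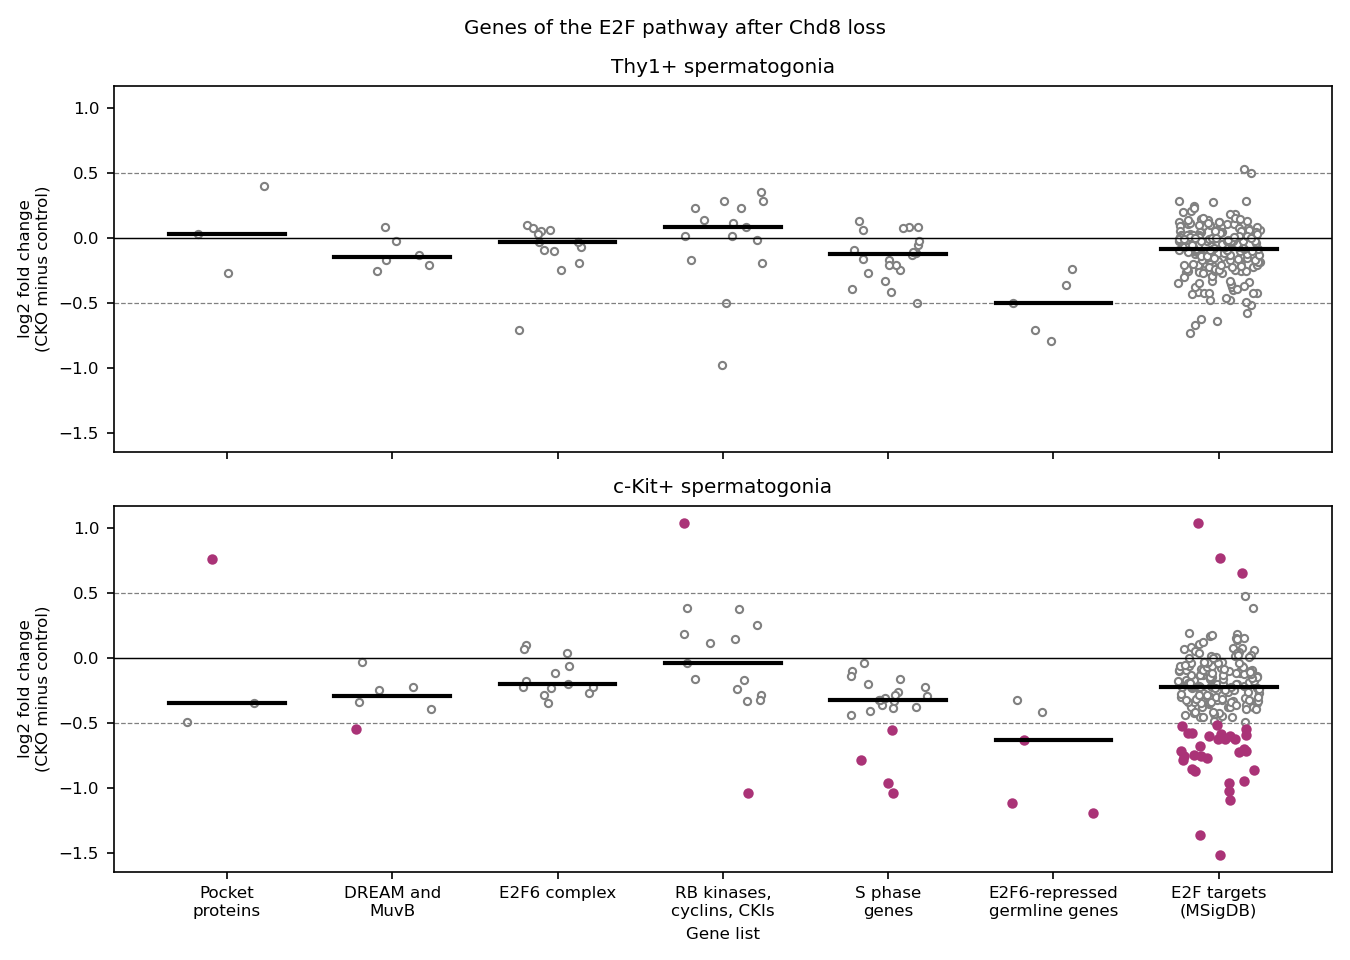
Log2 fold change (mutant minus control) of single genes in 7 lists around E2F, Thy1+ above and c-Kit+ below; each point is a gene, filled points are called, bars are list medians and dashed lines the fold threshold of 0.5. No point is filled in Thy1+ cells, where 0 of all 17416 genes were called. In c-Kit+ cells Rbl2 and Cdkn1b lie above, and the medians of the replication genes and E2F targets lie at -0.32 and -0.22.

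The genes with the pattern most like each member were taken by Pearson correlation of log2 CPM over the 12 libraries, among 17422 genes. These correlations span 4 groups that also differ in somatic RNA, so they describe these libraries. For E2f2 the nearest were Agpat5 (r = 0.960), Mospd3 (0.951) and Kif7 (0.945), and for E2f4 Agpat1 (0.963), Ap3d1 (0.947) and Gnptg (0.941). For E2f1 they were Ero1a (0.969), Fanci (0.966) and Rnf157 (0.965), and for E2f5 Mtbp (0.983), Mir9-3hg (0.981) and Spag4 (0.980). E2f7 was nearest to Piga (0.960), Hjurp (0.955) and Tlcd4 (0.955), and E2f8 to Sox11 (0.952), Dennd5b (0.932) and Ott (0.925). Tfdp1 was nearest to Rdh12 (0.978), Dcaf13 (0.975) and Asb9 (0.972). The steadier members had lower values, E2f3 with Gimap9 (0.874), Atp6v0d1 (0.844) and En2 (0.841), E2f6 with Trim71 (0.842), Dpp6 (0.836) and Smim24 (0.835), and Tfdp2 with Stim2 (0.907), Siglecf (0.904) and Tmc4 (0.899). Within the family, the highest of 45 pairwise values was that of E2f2 with E2f4 (0.880) and the lowest that of E2f2 with Tfdp2 (-0.632).

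All 10 genes are annotated as protein coding, and the count table sums reads over all exons of each. On mm10, the activators span chr2:154559639-154569852 (E2f1, 7 exons), chr4:136172394-136196057 (E2f2, 7 exons) and chr13:29906575-29986063 (E2f3, 7 exons). The pocket protein-bound repressors span chr8:105297663-105305370 (E2f4, 10 exons) and chr3:14578671-14606309 (E2f5, 8 exons), and E2f6 spans chr12:16810965-16826752 (8 exons). The atypical repressors span chr10:110745465-110787384 (E2f7, 13 exons) and chr7:48866429-48881041 (E2f8, 13 exons), and the DP genes chr8:13339674-13377702 (Tfdp1, 11 exons) and chr9:96196275-96323646 (Tfdp2, 17 exons). Apart from E2f5 and E2f8, none shared exonic bases with another gene.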

How the data were processed

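RNA-seq of 12 libraries was used; the ChIP-seq files were not used here. The authors trimmed paired reads (Trimmomatic 0.39), mapped them to mm10 (HISAT2 2.1.0) and deposited raw counts per Entrez gene from featureCounts (2.0.3 in the file header). Reads were counted singly and without strand, so 65.6 to 69.5% of low counts were even and a fragment often counts as 2 reads. Of 27179 genes, 25275 were matched to a symbol. Genotypes were compared within each population, and populations within each genotype, with edgeR 4.0.16 in R 4.3.3 (TMM, filterByExpr, quasi-likelihood test, Benjamini-Hochberg over all genes tested), which was tested on simulated data. Each fit was normalised on its own libraries, whereas CPM and RPKM were normalised over 12, so near 0 the signs can differ (E2f6 in c-Kit+, Tfdp2 between controls). SEs are the log2 fold change divided by the square root of F. DESeq2 1.42.0, other normalisations and filters, the exact test, leaving out each library and a replicate block were tried. Replicates are separate samples by their labels, and nothing used here ties a library to particular animals, so p-values measure the spread between these samples. Deviations of same-numbered libraries correlated at 0.266 to 0.490 (Thy1+ genotypes), 0.101 to 0.125 (c-Kit+ genotypes) and 0.134 to 0.298 (controls), but from 0.021 in mutants, so the block was read for the former. The members and lists were chosen with earlier results of these data known. Named were all members, every called gene of lists of at most 15 genes, up to 6 with the lowest p of longer lists, the 3 most correlated genes per member, Chd8, Thy1 and Kit.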

Additional observations from a re-analysis of the deposited data

How the results depend on the processing

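The fall of E2f2 in c-Kit+ cells was called in all settings run. Members called in c-Kit+ cells numbered 1 with all 12 libraries in a single fit, 4 with no minimum fold and 1 to 2 when each library was left out. The replicate block, supported by correlated deviations, called 1 member in Thy1+ cells, beside 8.12% of all genes. Between control populations it called 2, as did DESeq2 and the fit of 12 libraries, beside 30.1%, 29.4% and 28.6% of all genes. Leaving out libraries gave 0 to 2 there, beside 20% to 32% of all genes. Between mutant populations 1 passed with no minimum fold, beside 27.3% of all genes. The block changed no other member's call. In all, 20 of 50 member values changed sign in some setting, none with an FDR under 0.05 in the analysis reported.

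The log2 change of the activator to repressor ratio without E2f1 was -0.06 (Thy1+ genotypes), -0.13 (c-Kit+ genotypes), 0.05 (controls) and 0.11 (mutants). Without E2f5 it was -0.09 (c-Kit+), -0.19 (controls) and -0.09 (mutants), without E2f6 0.10 (c-Kit+) and 0.11 (controls), without E2f2 0.03 (c-Kit+) and without E2f3 -0.10 (controls).

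Sign changes on another scaling or filter were as follows. In c-Kit+ cells E2f6 was 0.02 with all 12 libraries. Between controls Tfdp2 was -0.03 with DESeq2, its size factors or a filter of 1 CPM, -0.08 by library size, -0.02 with no filter and -0.02 with all 12 libraries, and E2f6 was -0.03 by library size. Between mutants E2f6 and Tfdp2 were 0.00 with DESeq2 or its size factors and 0.01 with no filter, and E2f3 was -0.08 by library size, which moved the median of all genes to -0.12, and -0.04 with all 12 libraries. For the difference between populations DESeq2 and its size factors gave -0.01 (E2f6), -0.04 (Tfdp1) and -0.05 (Tfdp2), and no filter gave -0.01 (Tfdp2).

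On leaving out each library, Thy1+ genotype values that crossed 0 ran from -0.18 to 0.06 (E2f1), -0.15 to 0.01 (E2f3), -0.17 to 0.07 (E2f6), -0.32 to 0.02 (E2f7), -0.20 to 0.06 (E2f8) and -0.19 to 0.07 (Tfdp1). Between controls they ran from -0.14 to 0.04 (E2f3), -0.09 to 0.07 (E2f6) and -0.06 to 0.03 (Tfdp2), and between mutants from -0.19 to 0.02 (E2f1), -0.05 to 0.05 (E2f3), -0.09 to 0.10 (E2f6), -0.14 to 0.10 (E2f8) and -0.05 to 0.08 (Tfdp2). Differences between populations ran from -0.15 to 0.07 (E2f3), -0.12 to 0.17 (E2f6), -0.26 to 0.13 (E2f7), -0.17 to 0.15 (Tfdp1) and -0.04 to 0.07 (Tfdp2). The causes were not tested.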
